A study of Mus musculus with 4 samples.

Results

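Chemokines are small secreted proteins that steer migrating cells, and 10 genes of this system, 5 ligands and 5 receptors that T cells use, were followed through RNA-seq of stimulated mouse CD4+ T cells. The members were taken by gene symbol from a table of 16142 genes. They were the ligands Ccl1, Ccl3, Ccl4, Ccl5 and Xcl1 and the receptors Ccr4, Ccr6, Cxcr3, Cxcr4 and Cxcr5.

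Splenic CD4+ T cells came from WT B6 mice or from Cd4CreERT2 LSL-R111A fl/fl mice, were sorted by flow cytometry and were then stimulated with antibodies to CD3 (5 µg/mL) and CD28 (1 µg/mL) for 12 h, and polyA RNA was sequenced from 2 libraries per genotype. R111A is a form of Regnase-1, the RNA-degrading protein encoded by Zc3h12a, that the protease MALT1 cannot cleave. The mutant was a transgene under the CAG promoter at Rosa26, followed by P2A and EGFP and kept silent by a floxed STOP cassette, and the tamoxifen-dependent Cre was driven by Cd4, so that the transgene adds to the endogenous gene in T cells in which Cre acted. Over 5 days tamoxifen was injected i.p. at 75 mg/kg, in a label that names the WT and the R111A mice together, and the mice were 6 to 12 weeks old and of both sexes unless stated otherwise. For these libraries the sort is described only as CD4+. The methods' general account of sorting, for reporter mice, takes GFP+ cells and splits them by CD25 into regulatory and conventional T cells. For other assays the paper also describes cells of tamoxifen-treated WT mice sorted by CD25. Whether either sort applied to these libraries is not stated. Cells without stimulation were not analysed here. The labels do not say that the 2 libraries of a group came from separate animals or cultures, so p-values measure only the spread between these samples, which may be technical.

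A chemokine receptor is a protein of the cell membrane that couples to inhibitory G proteins, and its ligand makes the cell polarise, adhere and move up the gradient. Activated T cells secrete chemokines of their own, among them Ccl3, Ccl4 and Xcl1, and exchange receptors for lymphoid tissue, such as Ccr7, against receptors for inflamed tissue, such as Cxcr3 and Ccr4. Which receptors a CD4+ T cell carries is widely used to tell helper subsets apart.

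Levels are given as FPKM, reads per gene scaled for gene length and library size. The FPKM of a library summed to 801475 and 836143 for the WT libraries, and for the R111A libraries to 1053551 and 1012215, in the order of replicates 1 and 2 kept throughout. Over the 1938 genes that averaged 50 FPKM or more, the spread (scaled median absolute deviation) of the log2 ratio was 0.13 between the WT libraries, 0.32 between the R111A libraries and 0.60 to 0.64 between libraries of different groups. From the steps between low values, WT replicate 1 was sequenced 1.00 times as deeply as WT replicate 2, 1.06 times as deeply as R111A replicate 1 and 1.18 times as deeply as R111A replicate 2, but how many reads underlie a value is unknown. Zc3h12a, the gene of the transgene, stood at 16.97 and 15.72 FPKM in WT replicates, compared with 196.30 and 130.87 FPKM in R111A. It was high in both libraries labelled R111A, as their labels say, and endogenous and transgenic transcripts are not distinguished by these values.

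The cells carried the genes of T cells in all 4 libraries. Of 12 identity genes listed, 9 had values, and their summed level was 2172 and 2158 FPKM in WT and 1754 and 1608 FPKM in R111A, with Cd3g, a chain of the T cell receptor complex, the most abundant. Cd4 itself was at 157.54 and 131.28 FPKM in WT, compared with 70.69 and 51.35 FPKM in R111A (log2 fold change -1.24, SE 0.18, limma adjusted p = 0.000568, and 0.0514 with no filter), and Thy1, a surface protein of T cells, at 96.47 and 98.09 FPKM against 25.54 and 25.11 FPKM. These 2 were the only identity genes called. By limma's adjusted p alone 5 of the 9 were lower and 1 was higher, Cd3d, at 205.01 and 213.72 FPKM in WT and 275.23 and 266.87 FPKM in R111A (log2 fold change 0.37, limma adjusted p = 0.0294). Cd8a did not pass 0.20 FPKM in any library, while Cd8b1 was at 7.21 and 6.56 FPKM in WT and 3.86 and 4.39 FPKM in R111A (limma adjusted p = 0.00662, and 0.103 without WT replicate 1).

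All 10 members reached the filter, a mean of 1 FPKM over the 4 libraries, and were tested with limma on log2(FPKM + 1) among 9831 genes. A gene was called when its adjusted p was under 0.05 and its change at least 2-fold. Of the members, 4 were called lower in R111A, namely Ccl1, Ccl3, Ccl4 and Ccr4, against 8.34% of all genes tested, and 2 were called higher, Cxcr4 and Cxcr3, against 8.52%. By the adjusted p alone 5 were lower, with Ccr6 added, against 32.1% of all genes, and 2 were higher against 21.2%. The libraries of the 2 groups did not overlap for 5 members that were lower in R111A, against 46.3% of all genes, and for 3 that were higher, against 32.0%. The members were chosen with results of these data known, so nothing is read from these shares. The median log2 fold change was -0.27 over the members and -0.12 over all genes tested.

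This all-gene median depends on the scale. With FPKM rescaled to TPM, which gives every library the same sum, it moved by -0.30, from -0.12 to -0.42, and calls moved from 838 higher and 820 lower to 583 higher and 1749 lower. Of the 10 members only Xcl1 then took the other sign. Relative to the all-gene median on the FPKM scale, the log2 fold changes were 3.57 for Cxcr4, 1.60 for Cxcr3, 0.67 for Ccl5, 0.46 for Cxcr5 and 0.17 for Xcl1, and -0.48 for Ccr6, -0.99 for Ccl4, -1.75 for Ccl1, -2.23 for Ccl3 and -2.44 for Ccr4.

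**Figure D1:**
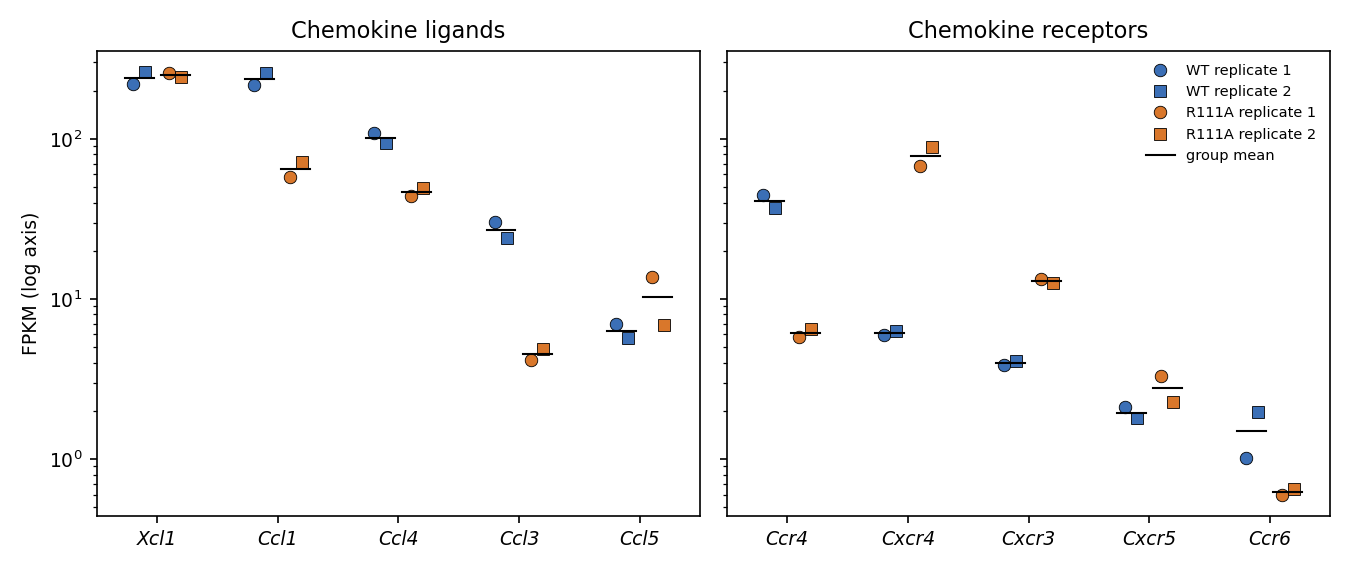
FPKM (log axis) of the 5 ligands and 5 receptors in each library, with circles for replicate 1, squares for replicate 2 and lines for the group means. The R111A libraries lie below the WT libraries for Ccl1, Ccl3, Ccl4, Ccr4 and Ccr6 and above them for Cxcr3, Cxcr4 and Cxcr5, while the groups overlap for Xcl1 and Ccl5.

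On the genome (GRCm38, the assembly of mm10, in the RefSeq annotation) the 4 CC ligands lie on chromosome 11. Ccl1 spans 82176666 to 82179812, Ccl5 83525778 to 83530518, Ccl3 83647843 to 83649378 and Ccl4 83648624 to 83664683. Ccl5 ends 117325 bases before Ccl3 begins, and its groups overlapped where Ccl3 and Ccl4 fell. In this annotation the spans of Ccl3 (minus strand) and Ccl4 (plus strand) share 755 bases. Whether reads were counted by strand is not given in the sources used here, so reads from that stretch could be assigned to either gene.

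Of the other members, Xcl1 (164931644 to 164935522) and Cxcr4 (128588199 to 128592299) are on chromosome 1 and Ccr4 (114490316 to 114505476) and Cxcr5 (44511787 to 44526444) on chromosome 9. Cxcr3 (101731535 to 101734147) is on chromosome X and Ccr6 (8236041 to 8258519) on chromosome 17. Each pair on a shared chromosome held a gene that was called and a gene that was not.

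The promoters of the members with the largest changes are shown because these genes moved strongly, 3 down and 1 up. The RefSeq promoter table (GRCm38.p6), with 250 bases before and 50 after a start site, held 7 of the 10 members, and Ccl4, Ccl5 and Cxcr5 were not matched. The windows are chr11:82179763-82180062 for Ccl1, chr11:83649329-83649628 for Ccl3, chr9:114496495-114496794 for Ccr4, at a start inside the gene's outer limits, and chr1:128592250-128592549 for Cxcr4, all read from the minus strand. Capitals mark matches on either strand to any of 4 motifs. The core that the factor NFAT binds was searched as GGAAA and the site of the factor AP-1 as TGANTCA. A stretch that classic sites of NF-kB share was searched as GGANTTTCC. The TATA box, which places the start of transcription, was searched as TATAAA.
Ccl1: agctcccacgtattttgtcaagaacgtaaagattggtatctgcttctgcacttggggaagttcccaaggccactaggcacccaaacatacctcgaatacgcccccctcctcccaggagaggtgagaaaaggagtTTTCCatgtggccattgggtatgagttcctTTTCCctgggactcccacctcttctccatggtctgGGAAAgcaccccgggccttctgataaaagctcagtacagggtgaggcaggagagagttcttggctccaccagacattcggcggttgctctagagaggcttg
Ccl3: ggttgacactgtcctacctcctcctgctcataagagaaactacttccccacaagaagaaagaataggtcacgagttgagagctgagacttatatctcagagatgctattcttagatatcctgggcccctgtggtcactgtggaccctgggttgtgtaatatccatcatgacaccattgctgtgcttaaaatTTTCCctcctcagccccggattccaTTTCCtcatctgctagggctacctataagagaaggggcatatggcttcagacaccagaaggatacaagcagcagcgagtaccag
Ccr4: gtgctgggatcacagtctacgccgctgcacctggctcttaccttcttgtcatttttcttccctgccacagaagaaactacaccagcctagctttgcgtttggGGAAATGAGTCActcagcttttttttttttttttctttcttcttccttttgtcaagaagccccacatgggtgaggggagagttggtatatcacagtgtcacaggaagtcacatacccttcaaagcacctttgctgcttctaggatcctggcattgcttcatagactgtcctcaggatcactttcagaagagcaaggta
Cxcr4: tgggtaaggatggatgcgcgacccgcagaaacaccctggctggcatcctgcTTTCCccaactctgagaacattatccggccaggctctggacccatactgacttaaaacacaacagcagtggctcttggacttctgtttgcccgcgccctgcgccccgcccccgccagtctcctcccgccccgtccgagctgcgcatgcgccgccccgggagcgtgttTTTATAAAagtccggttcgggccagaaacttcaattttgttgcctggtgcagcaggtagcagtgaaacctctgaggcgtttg

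NFAT, AP-1 and NF-kB are the factors that T cell receptor and CD28 signals activate. GGAAA was found 3 times in the Ccl1 window, 2 times in that of Ccl3 and 1 time each in those of Ccr4, Cxcr4 and Xcl1 and in both windows of Ccr6, and it is present in 61.3% of all 32851 promoters. In Ccr4 it begins at base -148, counted from the start site, and runs straight into TGANTCA at -143, an order found in 14 promoters or 0.0426%, while TGANTCA alone is in 7.81%. The joined order is not one of the 4 motifs, and longer strings of letters are rarer, so nothing is read from its share. The Cxcr4 window holds overlapping TATAAA matches on both strands, at -32 and -30, a motif of 13.6% of promoters. GGANTTTCC, in 1.25% of promoters, was in none of the member windows, and the Cxcr3 window held no match to any of the 4 motifs. A match is a description of these letters and not of binding.

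Of the ligands, Ccl1, Ccl3 and Ccl4 fell. Ccl1 (NCBI gene 20290), which attracts cells that carry Ccr8, was at 217.16 and 256.68 FPKM in WT replicates, compared with 57.68 and 71.33 FPKM in R111A. Each R111A library held less than either WT library, and the ratio of the WT mean to the R111A mean was 3.67 (log2 fold change -1.86, SE 0.15, limma adjusted p = 3.41e-05).

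Ccl3 (NCBI gene 20302) and Ccl4 (NCBI gene 20303), also known as MIP-1 alpha and MIP-1 beta, are inflammatory chemokines. Ccl3 was at 30.13 and 24.03 FPKM in WT, compared with 4.16 and 4.88 FPKM in R111A. The groups were far apart, with a ratio of the WT to the R111A mean of 5.99 (log2 fold change -2.34, SE 0.16, limma adjusted p = 1.54e-05), and 36 of the 9831 genes had a larger fall. Ccl4 was at 109.34 and 94.29 FPKM in WT, compared with 44.06 and 49.58 FPKM in R111A. The R111A libraries were again the lower ones, by less than for Ccl3 (log2 fold change -1.10, SE 0.14, limma adjusted p = 0.000301). Ccl4 lay close to the 2-fold line and went under it with quantile normalization (-0.89, limma adjusted p = 0.0019) and without WT replicate 1 (-0.997). Over its alternatives the limma adjusted p ran from 4.14e-11 to 0.0247. The lowest came from the replicate block, whose p-values are too small for 2 libraries per group.

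Within each library, where scaling cancels out, the FPKM of Ccl3 was 0.276 and 0.255 times that of Ccl4 in WT and 0.0944 and 0.0984 times in R111A. The ratio was lower in both R111A libraries than in either WT library. The difference between the changes of Ccl3 and Ccl4 was not tested.

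Xcl1 (NCBI gene 16963), lymphotactin, attracts the dendritic cells that carry Xcr1. It was at 219.82 and 262.03 FPKM in WT, compared with 257.94 and 242.49 FPKM in R111A. The R111A values lay between the WT values, and no difference passed the test (log2 fold change 0.06, SE 0.14, limma adjusted p = 0.734), with a change of sign on the TPM scale (-0.27) and without WT replicate 1 (-0.07). In WT the FPKM of Ccl1 was 0.988 and 0.980 times that of Xcl1, and in R111A 0.224 and 0.294 times.

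Ccl5 (NCBI gene 20304), or RANTES, is known as a late product of activated T cells. It was at 6.93 and 5.69 FPKM in WT, compared with 13.68 and 6.85 FPKM in R111A. R111A replicate 1 stood above the other 3 libraries, and R111A replicate 2 was level with WT replicate 1 (log2 fold change 0.56, SE 0.27, limma adjusted p = 0.106). The value rested on R111A replicate 1. It was 0.11 without that library (adjusted p = 0.517) and 1.01 without R111A replicate 2 (adjusted p = 0.0012, the lowest over its alternatives, where the highest was 0.517). With the replicate number as a block its limma adjusted p was 0.00383, but the p-values of that fit are too small for 2 libraries per group and are not weighed.

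The 5 ligands together summed to 583.4 and 642.7 FPKM in WT and 377.5 and 375.1 FPKM in R111A. Xcl1 made up 37.7% and 40.8% of that sum in WT and 68.3% and 64.6% in R111A, and Ccl1 37.2% and 39.9% against 15.3% and 19.0%. The leading pair of WT, Xcl1 and Ccl1, did not differ beyond their spread there, while in R111A Xcl1 stood alone.

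Of the receptors, Cxcr4 and Cxcr3 rose and Ccr4 fell. Cxcr4 (NCBI gene 12767), the receptor for Cxcl12 that holds cells in bone marrow and guides them in lymphoid tissue, was at 5.99 and 6.32 FPKM in WT, compared with 67.45 and 88.38 FPKM in R111A. Both R111A libraries lay far above both WT libraries, with a ratio of the R111A to the WT mean of 12.7 (log2 fold change 3.45, SE 0.16, limma adjusted p = 3.62e-06). Only 15 of the 9831 genes had a larger rise. Its promoter, printed above, is the member window with a TATAAA match.

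Cxcr3 (NCBI gene 12766), the receptor for Cxcl9, Cxcl10 and Cxcl11 that marks T helper 1 cells, was at 3.89 and 4.09 FPKM in WT, compared with 13.32 and 12.60 FPKM in R111A. The replicates of each group lay close together and the groups did not overlap, with a ratio of 3.25 between the means (log2 fold change 1.48, SE 0.14, limma adjusted p = 6.2e-05). Tbx21, which encodes T-bet, a factor known to drive Cxcr3, was at 30.32 and 29.08 FPKM in WT, compared with 5.44 and 3.16 FPKM in R111A (log2 fold change -2.57, SE 0.20, limma adjusted p = 3e-05), so that it fell where Cxcr3 rose. Eomes, the related factor, was at 0.88 and 0.80 FPKM in WT, compared with 6.68 and 4.32 FPKM in R111A.

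Ccr4 (NCBI gene 12773), the receptor for Ccl17 and Ccl22 on T helper 2 cells, regulatory T cells and skin-homing cells, was at 44.69 and 37.20 FPKM in WT, compared with 5.77 and 6.45 FPKM in R111A. The R111A libraries were the low ones, with a ratio of the WT to the R111A mean of 6.70 (log2 fold change -2.56, SE 0.15, limma adjusted p = 8.82e-06), and 22 of the 9831 genes had a larger fall. Its promoter, printed above, is the member window with a TGANTCA match. Gata3, the factor of T helper 2 cells, was at 5.08 and 4.76 FPKM in WT and 3.36 and 2.69 FPKM in R111A.

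Regulatory T cells also carry Ccr4 and Ccr8, so their markers were read as well. Of 8 markers listed, all with values over the filter, 3 were called lower, namely Foxp3, Ctla4 and Tnfrsf18, and 0 higher. By limma's adjusted p alone 2 were higher, Capg (log2 fold change 0.58, limma adjusted p = 0.00427) and Ikzf4 (0.53, 0.0275), but Capg did not pass on the TPM scale (0.25, adjusted p = 0.0957) or without WT replicate 1 (0.52, 0.0703). Ikzf2, Il2ra and Nrp1 did not pass the adjusted p, while at an unadjusted p under 0.05 the counts were 4 lower, with Nrp1 added, and 2 higher. Foxp3, the defining factor, was at 11.31 and 8.78 FPKM in WT, compared with 2.86 and 1.86 FPKM in R111A. The list summed to 727 and 775 FPKM in WT and 743 and 727 FPKM in R111A, where Capg, its most abundant gene, was at 334.18, 365.50, 537.11 and 512.04 FPKM in the same order. Activated conventional T cells also express Il2ra, Ctla4 and Tnfrsf18. In bulk RNA, fewer cells of a type and less RNA per cell cannot be told apart, and the part of these cells in the fall of Ccr4 was not tested.

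Cxcr5 and Ccr6 were low in all 4 libraries. Cxcr5 (NCBI gene 12145), the receptor for Cxcl13 that brings follicular helper T cells to B cell follicles, was at 2.10 and 1.80 FPKM in WT, compared with 3.28 and 2.28 FPKM in R111A. The R111A values were the higher ones, without passing the test (log2 fold change 0.35, SE 0.17, limma adjusted p = 0.113), except without R111A replicate 2 (0.54, adjusted p = 0.0119, the lowest of its alternatives, which ran up to 0.585). Bcl6, the factor of follicular helper T cells, rose, from 7.20 and 5.95 FPKM in WT to 37.28 and 30.46 FPKM in R111A (log2 fold change 2.20, SE 0.16, limma adjusted p = 2.03e-05).

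Ccr6 (NCBI gene 12458), the receptor for Ccl20 on T helper 17 cells, was at 1.01 and 1.98 FPKM in WT, compared with 0.60 and 0.65 FPKM in R111A. Both R111A values were below the WT values, and the WT values differed from each other by more than the lower of them from the R111A values. Its mean of 1.06 FPKM was just over the filter, which it passed through the WT libraries, so that it had to be lower in R111A (log2 fold change -0.59, SE 0.19, limma adjusted p = 0.0299). Being short of 2-fold it was not called, and its adjusted p no longer passed with no filter (0.196), without R111A replicate 1 (0.091) and without R111A replicate 2 (0.0649), where its alternatives began at 0.00113. Only a pseudocount of 0.1 FPKM took it past 2-fold (-1.07), and without WT replicate 2 or with a filter at 5 FPKM it was not tested.

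**Figure D2:**
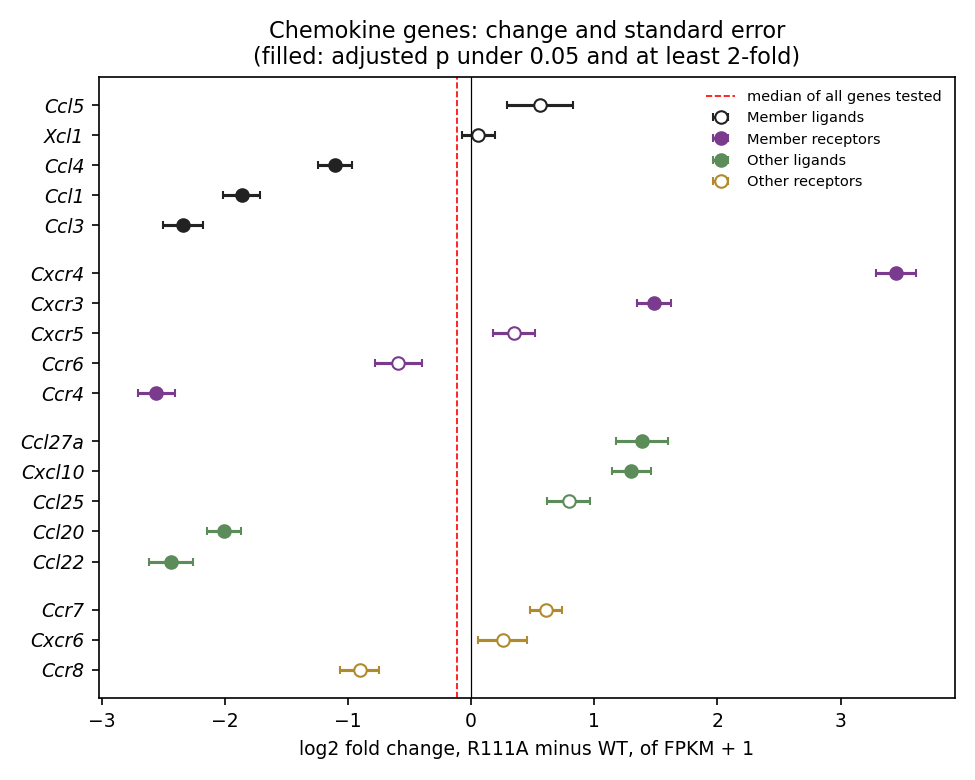
Log2 fold change of FPKM + 1, R111A minus WT, with its standard error from limma, for the 10 members and the other chemokine ligands and receptors that reached 1 FPKM on average. Filled points passed the adjusted p of 0.05 and the 2-fold change, and the dashed line is the all-gene median of -0.12, with Cxcr4 at 3.45 and Ccr4 at -2.56 as the ends of the range.

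The receptors changed places. Ccr4 made up 77.5% and 72.4% of the summed FPKM of the 5 receptors in WT and 6.38% and 5.84% in R111A, whereas Cxcr4 made up 10.4% and 12.3% in WT and 74.6% and 80.1% in R111A. Within a library, which no scaling alters, the FPKM of Cxcr4 was 0.134 and 0.170 times that of Ccr4 in WT and 11.7 and 13.7 times in R111A. The sum of the 5 receptors was 57.7 and 51.4 FPKM in WT and 90.4 and 110.4 FPKM in R111A.

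**Figure D3:**
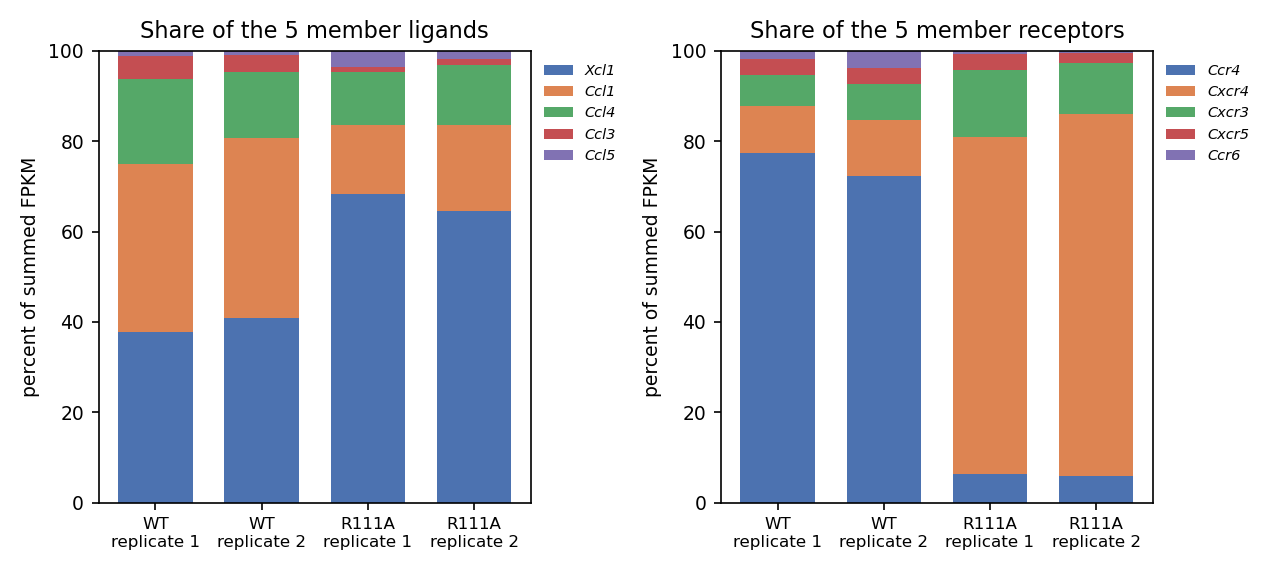
Share of each gene in the summed FPKM of the 5 member ligands (left) and of the 5 member receptors (right) in each library, in percent. Xcl1 holds 37.7% to 40.8% of the ligands in WT and 64.6% to 68.3% in R111A, and the leading receptor is Ccr4 in both WT libraries and Cxcr4 in both R111A libraries.

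The order of levels, from high to low, was Xcl1, Ccl1, Ccl4, Ccr4, Ccl3, Ccl5, Cxcr4, Cxcr3, Cxcr5 and Ccr6 in WT. There the values of the replicates overlapped between Xcl1 and Ccl1, between Ccl5 and Cxcr4 and between Cxcr5 and Ccr6, and other neighbours stood apart. In R111A the order was Xcl1, Cxcr4, Ccl1, Ccl4, Cxcr3, Ccl5, Ccr4, Ccl3, Cxcr5 and Ccr6, with overlap between Cxcr4 and Ccl1 and between Cxcr3 and Ccl5. Among all genes tested, the mean level of Cxcr4 was at percentile 27.6 in WT and 88.2 in R111A, and that of Ccr4 at percentile 75.4 and 27.6. Xcl1 was at percentile 95.7 and 96.4.

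The partners of the members were then read from a list of 13 receptors and ligands. Only 4 of them had a mean of at least 1 FPKM, and of these 2 were called lower, Ccl22 and Ccl20, and 1 higher, Cxcl10. Ccr8, the receptor for Ccl1 and the most abundant, was at 76.86 and 79.33 FPKM in WT, compared with 35.71 and 47.52 FPKM in R111A. It was lower in both R111A libraries, short of the 2-fold threshold (log2 fold change -0.91, SE 0.16, limma adjusted p = 0.00163). It passed that line on the TPM scale (-1.24) and without R111A replicate 2 (-1.11), and with no filter the adjusted p was 0.0568.

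Ccl22, a ligand of Ccr4, was at 17.00 and 23.48 FPKM in WT, compared with 3.14 and 2.64 FPKM in R111A. It fell as Ccr4 did (log2 fold change -2.43, SE 0.18, limma adjusted p = 2.13e-05). Ccl17, the other ligand of Ccr4, was at 1.60 and 0.80 FPKM in WT, compared with 0 and 0.31 FPKM in R111A, under the filter. Ccl20, the ligand of Ccr6, was at 3.96 and 3.53 FPKM in WT, compared with 0.23 and 0.13 FPKM in R111A (log2 fold change -2.01, SE 0.14, limma adjusted p = 1.7e-05). It passed the filter through the WT libraries, so that, like Ccr6, it had to be lower in R111A. Nothing is read from the shared direction of these genes.

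Cxcl10, a ligand of Cxcr3 that interferons induce, was at 6.96 and 6.27 FPKM in WT, compared with 19.94 and 15.78 FPKM in R111A. It rose as Cxcr3 did (log2 fold change 1.30, SE 0.16, limma adjusted p = 0.000249). With a pseudocount of 5 FPKM, which shrinks changes of low genes most, Cxcl10 (0.97) and Ccl20 (-0.76) were short of 2-fold, as was Cxcr3 (0.998). The other ligands of Cxcr3 were under the filter, Cxcl9 at 0.41 and 0.81 FPKM in WT and 0 and 0.05 FPKM in R111A, the other way from Cxcl10, and Cxcl11 at no more than 0.13 FPKM. Cxcl12, the ligand of Cxcr4 that stromal cells make, was listed at 0 in all 4 libraries, and Cxcl13, the ligand of Cxcr5, did not pass 0.39 FPKM. Ccr1 and Ccr3, which bind Ccl5, and Xcr1, which binds Xcl1, did not pass 0.02 FPKM in any library.

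**Figure D4:**
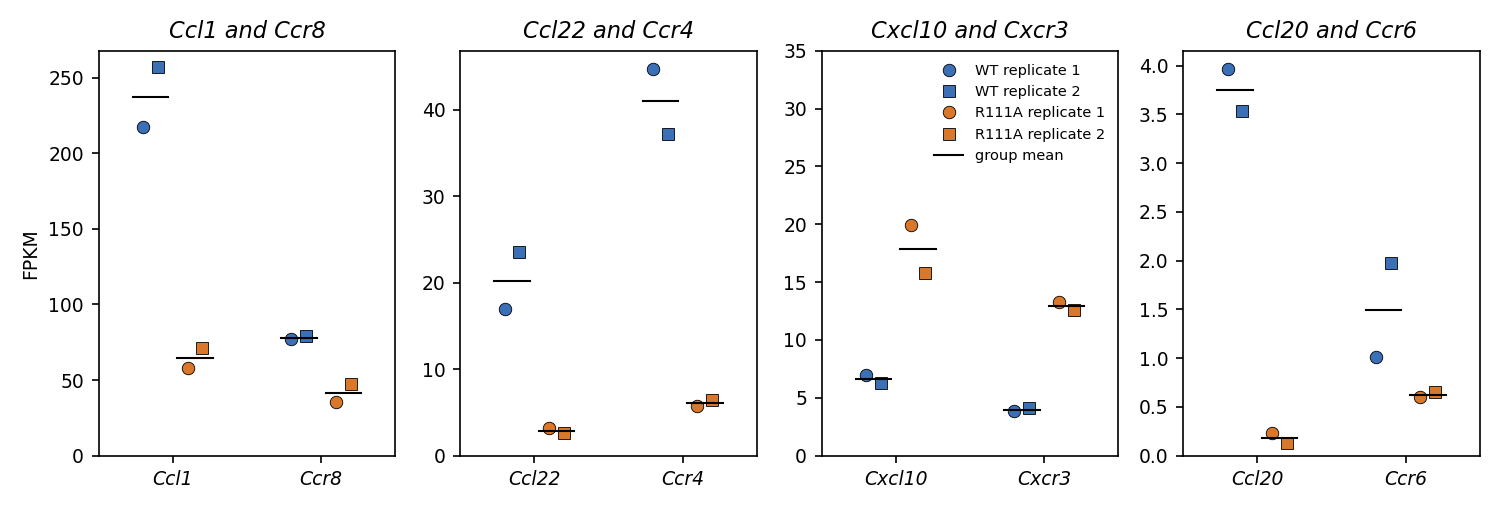
FPKM (linear axes from 0, each panel on its own scale) of 4 pairs of a ligand and its receptor in each library, with lines for the group means. Ccl1 with Ccr8, Ccl22 with Ccr4 and Ccl20 with Ccr6 are lower in the R111A libraries, and Cxcl10 with Cxcr3 is higher. Ccl20 and Ccr6 passed the filter through the WT libraries, so both had to be lower.

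Most other genes of the family were under the filter. Of 31 other ligands with values, 11 were at 0 in all 4 libraries and 5 were tested, with 2 called lower, the Ccl20 and Ccl22 above, and 2 higher, Cxcl10 and Ccl27a. Ccl27a was at 2.64 and 4.14 FPKM in WT and 12.24 and 8.65 FPKM in R111A, but it has near-identical copies such as Ccl27b, so its value is uncertain. Ccl25, a gut and thymus chemokine, was at 2.89 and 2.56 FPKM in WT and 4.55 and 6.49 FPKM in R111A (log2 fold change 0.79, SE 0.17, limma adjusted p = 0.00527). Ccl25 and Ccl27a did not pass with no filter (adjusted p = 0.0928 and 0.0671). Ccl27a was short of 2-fold with a pseudocount of 5 FPKM (0.88), and Ccl25 reached 2-fold without R111A replicate 1 (1.01).

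Of 14 other receptors 3 were tested and 0 were called in either direction, while 1 was lower and 1 higher by the adjusted p of limma alone, as at an unadjusted p under 0.05. Ccr7, the receptor that brings T cells to lymph nodes, was at 369.71 and 349.26 FPKM in WT, compared with 588.14 and 511.21 FPKM in R111A. It was the most abundant chemokine receptor in every library and higher in R111A (log2 fold change 0.61, SE 0.13, limma adjusted p = 0.00443), but on the TPM scale it did not pass (0.27, adjusted p = 0.0814). Cxcr6 was at 4.28 and 5.22 FPKM in WT and 4.67 and 7.26 FPKM in R111A, overlapping (limma adjusted p = 0.302, and 0.019 without R111A replicate 1). The 5 atypical receptors, most of which take up chemokines without signalling, did not pass 1 FPKM, with Ccrl2 the highest at 0.25 and 0.27 FPKM in WT and 0.60 and 0.55 FPKM in R111A. The FPKM of Cxcr4 was 0.0162 and 0.0181 times that of Ccr7 in WT and 0.115 and 0.173 times in R111A.

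Downstream of the receptors, 19 genes of G protein signalling, cytoskeleton and adhesion were all tested, and only Rac2 was called, lower in R111A. Rac2, the GTPase of blood cells that drives actin at the leading edge, was at 136.20 and 115.18 FPKM in WT, compared with 67.93 and 52.12 FPKM in R111A (log2 fold change -1.06, SE 0.16, limma adjusted p = 0.000858), and it did not pass with no filter (adjusted p = 0.0514). It fell short of 2-fold with median-of-ratios factors (-0.97), quantile normalization (-0.83), without WT replicate 1 (-0.94) and without R111A replicate 2 (-0.87). By the adjusted p alone 5 of the 19 were lower, against 32.1% of all genes, and 1 higher, against 21.2%. At an unadjusted p under 0.05 the counts were 11 lower and 1 higher, for which the share of all genes was not computed. The median of the list was -0.36 against -0.12 for all genes tested. Coro1a, an actin regulator and the most abundant of the list, was at 672.51 and 748.83 FPKM in WT and 624.70 and 501.97 FPKM in R111A, and the difference did not pass the test except on the TPM scale (limma adjusted p = 0.000733) and without R111A replicate 1 (0.0107).

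Of 14 genes that end receptor signals, 12 were tested, with 2 called lower and 2 higher. Rgs1, a brake on G protein signals that limits T cell migration, was at 205.50 and 228.16 FPKM in WT, compared with 72.23 and 74.67 FPKM in R111A. It fell (log2 fold change -1.55, SE 0.13, limma adjusted p = 3.35e-05), while Rgs16, of the same protein family, was at 102.09 and 103.90 FPKM in WT and 254.69 and 244.91 FPKM in R111A and rose (log2 fold change 1.27, SE 0.12, limma adjusted p = 6.89e-05). Rgs3 rose as well, from 23.24 and 23.87 FPKM to 55.55 and 45.02 FPKM. Grk6, a kinase that phosphorylates active receptors, Cxcr4 among them, fell from 78.09 and 82.56 FPKM to 42.90 and 35.64 FPKM (log2 fold change -1.02, SE 0.14, limma adjusted p = 0.000485). Close to the line, Grk6 was short of 2-fold with a pseudocount of 5 FPKM (-0.95), median-of-ratios factors (-0.93), quantile normalization (-0.82), without WT replicate 2 (-0.98) and without R111A replicate 2 (-0.89). Rgs16 (0.94) and Rgs3 (0.73) were short of it on the TPM scale, and Rgs3 also with a pseudocount of 5 FPKM (0.95) and without R111A replicate 1 (0.91). Rgs10, the most abundant of the list, was at 211.23 and 212.13 FPKM in WT and 192.74 and 198.71 FPKM in R111A, with a limma adjusted p of 0.451 that passed on the TPM scale (0.00919).

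Genes of T cell activation did not move one way. Of 8 listed, 4 were called higher, the early surface protein Cd69, the costimulatory receptor Tnfrsf9 and the transcription factors Nr4a1 and Egr2, and 3 lower, Irf4, Myc and Tnfrsf4. Nr4a1, an immediate early gene of receptor signalling, was at 145.72 and 143.84 FPKM in WT and 982.95 and 616.23 FPKM in R111A, and Irf4, a factor that scales with signal strength, at 426.09 and 367.72 FPKM against 117.23 and 134.59 FPKM. Il2ra was at 140.21 and 136.12 FPKM in WT and 127.30 and 128.61 FPKM in R111A. With no filter Cd69 and Myc did not pass (adjusted p = 0.0544 and 0.0806). Cd69 was short of 2-fold on the TPM scale (0.89) and without R111A replicate 2 (0.97), and Myc (-1.02) in 5 of its alternatives, down to -0.75 without R111A replicate 2.

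Other blood cells also express several members, so their markers were read in the same libraries. Of the member ligands, NK cells make Xcl1, Ccl3, Ccl4 and Ccl5, and which member receptors they carry was not examined here. Of 10 NK markers 5 were tested, and 3 were called higher, Klrd1, Gzma and Eomes, and 1 lower, Nkg7, the most abundant. The 3 higher ones averaged under 1 FPKM in WT and passed the filter through the R111A libraries, so they could only be higher. Klrd1 was at 1.00 and 0.40 FPKM in WT and 12.14 and 13.59 FPKM in R111A, and Nkg7 at 19.28 and 22.83 FPKM against 4.43 and 4.14 FPKM. The list summed to 22.1 and 25.1 FPKM in WT and 29.7 and 28.2 FPKM in R111A. By limma's adjusted p alone 4 were higher, with Prf1 added, and 1 was lower. Prf1 was at 0.51 and 0.78 FPKM in WT and 2.57 and 1.78 FPKM in R111A (limma adjusted p = 0.00194). It too passed the filter through R111A. The defining markers Ncr1 and Klrb1c were under the filter and higher in both R111A libraries. Ncr1 was at 0.05 and 0 FPKM in WT and 0.30 and 0.12 FPKM in R111A, and Klrb1c at 0 and 0.02 FPKM against 0.10 and 0.14 FPKM. Klre1, also under the filter, was at 0.10 and 0 FPKM in WT and 0.78 and 1.10 FPKM in R111A. Klrk1 (0.21 and 0.18 FPKM against 0.53 and 0.72 FPKM) and Klra8 (0 and 0 FPKM against 0.22 and 0.33 FPKM) were likewise higher under the filter.

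Myeloid cells make Ccl3, Ccl4, Ccl22 and Cxcl10 and carry Cxcr4. Of 13 myeloid markers 4 were tested and 3 were called higher, Cd68, Lyz2 and Fcer1g, of which Lyz2 and Fcer1g passed the filter through R111A alone and could not have been lower. Tyrobp, also tested, was at 2.94 and 0.63 FPKM in WT and 0.85 and 0.97 FPKM in R111A and was not called. Their list summed to 6.05 and 3.22 FPKM in WT and 21.5 and 16.2 FPKM in R111A, with Cd68 the most abundant at 1.54 and 0.78 FPKM in WT and 8.89 and 6.81 FPKM in R111A, Csf1r at no more than 0.07 FPKM and S100a9 at 0. Some under the filter were also higher in both R111A libraries, such as Adgre1 (0.04 and 0.04 FPKM against 0.77 and 1.04 FPKM), Fcgr3 (0.05 and 0.05 against 1.44 and 0.76), Itgam (0 and 0.03 against 0.54 and 0.39) and Itgax (0 and 0 against 0.36 and 0.41). B cells carry Cxcr4, Cxcr5 and Ccr6. Of 14 B cell markers 12 had values and 5 were tested, and only Cd79a was called, higher. It was at 0.32 and 0.24 FPKM in WT and 2.99 and 2.37 FPKM in R111A, again a gene over the filter through R111A only. By limma's adjusted p alone 2 were higher, with Cd79b added, and 0 lower. Cd79b, over the filter through R111A as well, was at 1.15 and 0.24 FPKM in WT and 1.51 and 1.71 FPKM in R111A (log2 fold change 0.68, limma adjusted p = 0.0394). Ms4a1 did not pass 0.23 FPKM, Pax5 did not pass 0.06 FPKM, Fcer2a, under the filter, was lower (0.72 and 1.08 FPKM against 0.03 and 0 FPKM), and the list, led by Cd74, summed to 36.9 and 37.4 FPKM in WT and 41.6 and 36.0 FPKM in R111A.

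Of 8 red cell and platelet genes 2 were tested and called higher, Hba-a1, the most abundant, at 0.66 and 0.44 FPKM in WT and 12.26 and 11.74 FPKM in R111A, and Itga2b at 0.28 and 0.31 FPKM against 9.92 and 10.24 FPKM. Both passed the filter through R111A and so had to be higher, and the other 6 were not tested. The list summed to 0.94 and 1.01 FPKM in WT and 22.9 and 23.3 FPKM in R111A, with Hbb-bs and Pf4 at 0 in all 4 libraries. With a pseudocount of 5 FPKM the calls of Gzma (0.44), Eomes (0.84), Lyz2 (0.56), Fcer1g (0.47) and Cd79a (0.54) were lost for want of a 2-fold change. The methods' general account of sorting has a bead purification of untouched CD4+ T cells, a negative selection, before the sort. Whether it applied to these libraries is not stated. The part of NK, myeloid, B or red cell RNA in the changes of the members was not tested.

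The genes nearest to the members with the largest changes were sought among the 7648 genes that averaged 5 FPKM or more, by the Euclidean distance over the 4 libraries between log2(FPKM + 1) values centred on each gene's mean. Nearest to Cxcr4 were Ovgp1 (distance 0.10), Pygm (0.18) and Glipr1 (0.19). Glipr1 was at 29.02 and 26.51 FPKM in WT, compared with 305.51 and 364.88 FPKM in R111A. Nearest to Ccr4 were Chaf1a (0.17), the member Ccl3 (0.22) and Mtfp1 (0.27). Chaf1a, a subunit of the histone chaperone of DNA replication, was at 15.42 and 12.82 FPKM in WT and 1.81 and 1.86 FPKM in R111A.

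**Figure D5:**
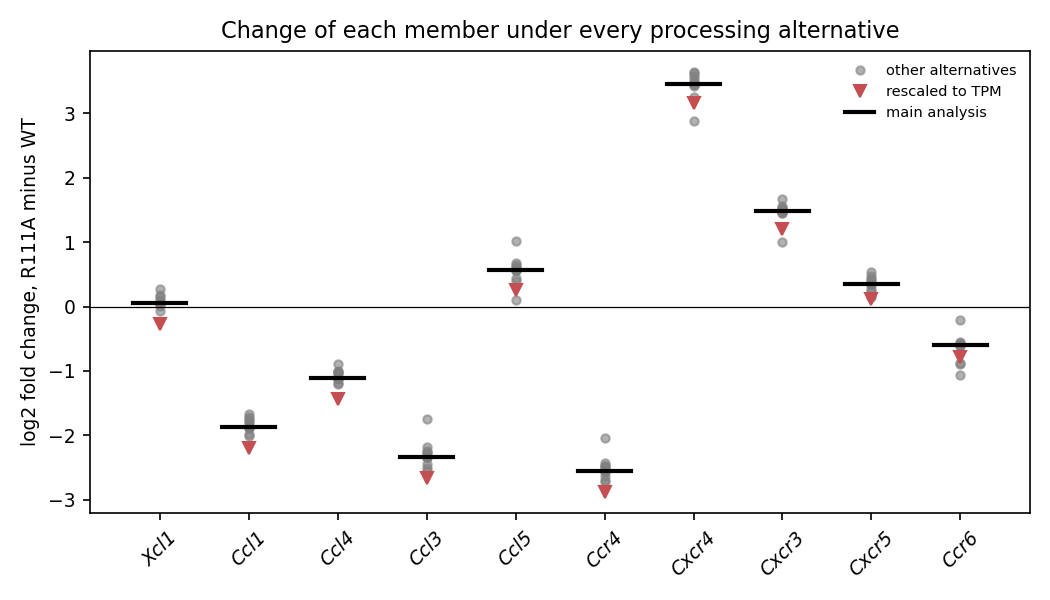
Log2 fold change of each member, R111A minus WT, in the main analysis (black lines), on the TPM scale (red triangles) and under the other alternatives (grey points). Ccl1, Ccl3, Ccl4, Ccr4 and Ccr6 stay below 0 and Cxcr3, Cxcr4, Cxcr5 and Ccl5 above it, and Xcl1 lies on both sides.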

How the data were processed

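RNA-seq was analysed in 2 WT and 2 R111A libraries of stimulated splenic CD4+ T cells. Per the submitters' processing notes and the methods, reads were aligned to mm10 with Bowtie2 (version 2.4.4) and quantified with RSEM (version 1.2.28), and the authors deposited 1 table of FPKM values. FPKM are not counts, so the DESeq2 step that the authors ran on counts was not repeated. Columns of per-sample values left unused numbered 0. Values were tested as log2(FPKM + 1), a scale that understates changes of low genes, with limma (version 3.58.1, R 4.3.3; lmFit, eBayes with a trend, Benjamini-Hochberg adjustment) over the 9831 genes that averaged 1 FPKM or more. The fit was also run on simulated data with the same spread in every gene and both groups. The R111A libraries differed more from each other than the WT libraries did, so that run does not check the fit under unequal spread. An exact permutation test of 2 against 2 libraries cannot give a two-sided p under 0.333. Tables, motif searches and plots used Python 3.11.15, numpy 2.4.6, pandas 2.3.3 and matplotlib 3.10.9. Gene positions and promoters came from RefSeq (GRCm38.p6), strands from GENCODE.

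The members and gene lists were chosen with earlier results of these data known. Named genes were the members, the called genes and most abundant gene of each list, family genes and partners that averaged 1 FPKM or more, the 3 genes nearest to each of the 2 members with the largest change, and Zc3h12a; other genes were named after their values were seen. A few listed genes are not reported here. Alternatives were other pseudocounts, filters, scalings and variance models, a replicate block, no fold threshold and each library left out.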

Additional observations from a re-analysis of the deposited data

How the results depend on the processing

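Of the 10 members, 6 kept their direction and their side of the adjusted p of 0.05 in all 14 alternatives computed for single genes, namely Ccl1, Ccl3, Ccl4, Ccr4, Cxcr3 and Cxcr4. Their log2 fold changes ranged from 2.88 to 3.64 for Cxcr4, 1.00 to 1.67 for Cxcr3, -2.88 to -2.04 for Ccr4, -2.66 to -1.75 for Ccl3, -2.20 to -1.66 for Ccl1 and -1.43 to -0.89 for Ccl4. Of the 50 other named genes tested, 42 had a value in all 14, and 28 of these kept both. A further 7 lacked a value in some alternatives and kept their direction and side of the adjusted p in the rest. These counts do not cover the 2-fold line, where calls were lost, as with a pseudocount of 5 FPKM. Ccr6 and Cxcr5 had no value with the filter at 5 FPKM, nor Ccr6 without WT replicate 2. With a pseudocount of 5 FPKM, 402 genes were called lower, 386 higher and 1 member higher, since Cxcr3 came to 0.998. With a filter at 5 FPKM, which tests 7648 genes, 521 were called higher. On the TPM scale 1749 were called lower, so that 25.0% of the calls were higher against 50.5% in the main analysis. Without the fold threshold 3152 genes were lower and 2088 higher. The cause of the shift on the TPM scale was not tested. With each library left out in turn, the lone library being assumed to vary like the other group, 812 to 887 genes were called lower and 785 to 884 higher, with 3 to 4 members lower and 2 to 3 higher.

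Signs turned for Xcl1 (-0.27 on the TPM scale, -0.067 without WT replicate 1, with leave-outs from -0.067 to 0.19), Cxcr6 (-0.024 on the TPM scale, and from -0.015 to 0.53 with a library left out, lowest without R111A replicate 2) and Rgs10 (0.095 with quantile normalization). Cd74 turned to 0.072 (median-of-ratios factors) and 0.097 (quantile normalization), and with a library left out it ran from -0.25 to 0.22, above 0 without WT replicate 1 and without R111A replicate 2. None of these 4 genes had passed the test, and the cause was not tested.

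Libraries of the 2 groups share only replicate numbers, and the deviations of same-numbered libraries from their group means correlated by 0.11 across genes. With the replicate block 821 genes were called lower and 841 higher, with 4 and 2 members, and of the named genes only Ccl5 changed sides. The limma adjusted p of that fit went down to 7.61e-90, for Cxcr4, which 2 libraries per group cannot bear out, so its p-values are not weighed. The limits are 2 libraries per group, an FPKM table without counts, so that the reads behind Ccr6, Cxcr5 and the receptors under the filter are not known, and RNA of sorted CD4+ cells in bulk, which does not show which cells carry which receptor. RNA levels are not surface protein, and only 1 time after stimulation was measured.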
